A study of Mus musculus with 24 samples.

Results

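The direct-pathway genes described here are Drd1, Tac1, Chrm4, Isl1, Eya1 and Sfxn1, 6 of the 52636 genes counted in RNA-seq libraries of the nucleus accumbens (NAc). They were taken as a listed set of genes linked to the medium spiny neurons of the direct pathway, by a rule that holds no measured value, and all 6 passed the filter on low counts in each comparison. The libraries came from C57BL/6 mice aged 50 days, with 6 animals in each of 4 groups, namely control (Con) females, Con males and females and males exposed as pups to MSUS, an early-life stress protocol that joins separation from the dam with unpredictable stress of the dam. Each library was made from total RNA of the bilateral NAc of an animal after removal of ribosomal RNA. No transgene or drug was given to any group, and the estrous stage of the females was not used here because the labels give a stage to males too and to only some of the females.

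The direct pathway is formed by medium spiny neurons, the GABAergic output cells of the striatum, that carry the D1 dopamine receptor and, in the dorsal striatum, project to the substantia nigra. Dopamine acting on this receptor raises cyclic AMP through the G protein subunit Gαolf and adenylyl cyclase 5, which activates protein kinase A, whereas the M4 muscarinic receptor, coupled to an inhibitory G protein, opposes that step in the same cells. Neurons of the indirect pathway carry the D2 dopamine receptor and the adenosine receptor encoded by Adora2a and make enkephalin in place of substance P. Drd1 encodes the D1 receptor and Chrm4 the M4 receptor. Tac1 encodes the precursor of substance P, Isl1 a LIM-homeodomain transcription factor needed for direct-pathway neurons and for striatal cholinergic interneurons, Eya1 a transcriptional coactivator and phosphatase, and Sfxn1 a mitochondrial serine transporter.

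The members lie on 4 chromosomes of the mm10 build. In the GENCODE M21 annotation, Drd1 (ENSMUSG00000021478.6) spans chr13:54051183-54055705 on the minus strand, and Sfxn1 (ENSMUSG00000021474.9) spans chr13:54071869-54108342 on the plus strand. The pair is therefore divergent, with 16163 bases and 0 annotated genes between them. Isl1 (ENSMUSG00000042258.13) is at chr13:116298281-116309689 on the minus strand and Tac1 (ENSMUSG00000061762.12) at chr6:7554879-7565834 on the plus strand. Chrm4 (ENSMUSG00000040495.4) at chr2:91927249-91928688 on the plus strand is annotated as 1 exon of 1440 bases, which is its coding length. By that annotation, reads from untranslated exons fall outside its count. Eya1 (ENSMUSG00000025932.14) at chr1:14168954-14310235 on the minus strand overlaps the small gene models Gm22616 on the opposite strand and Gm37444 on its own strand. Its count, taken on its own strand, is uncertain to the extent of the overlap with Gm37444. The reads were counted with GENCODE M15, whose models of these genes were not examined. Counts on the strand opposite to a member were between 0.26% (Drd1) and 0.722% (Chrm4) of its reads on both strands.

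RefSeq promoter windows (GRCm38.p6) were found for 5 of the 6 members, not for Eya1. The sequences before the start are shown for Drd1, Tac1, Chrm4 and Isl1, whose levels moved together across libraries, Isl1 less closely. That of Sfxn1, the neighbour of Drd1 whose level hardly varied, is also shown. Capitals mark CGTCA or its reverse complement TGACG, the half-site of the cyclic AMP response element, searched on both strands in the 250 bases before each RefSeq start; only the stretch before the outermost GENCODE start is printed.
Drd1, chr13:54055706-54055908, minus strand: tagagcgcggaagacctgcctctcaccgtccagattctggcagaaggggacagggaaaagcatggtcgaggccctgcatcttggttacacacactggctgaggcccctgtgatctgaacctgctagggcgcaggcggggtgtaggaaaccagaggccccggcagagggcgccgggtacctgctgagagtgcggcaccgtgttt
Tac1, chr6:7554811-7554878, plus strand: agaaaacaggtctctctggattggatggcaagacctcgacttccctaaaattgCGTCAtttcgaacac
Chrm4, chr2:91921939-91922188, plus strand: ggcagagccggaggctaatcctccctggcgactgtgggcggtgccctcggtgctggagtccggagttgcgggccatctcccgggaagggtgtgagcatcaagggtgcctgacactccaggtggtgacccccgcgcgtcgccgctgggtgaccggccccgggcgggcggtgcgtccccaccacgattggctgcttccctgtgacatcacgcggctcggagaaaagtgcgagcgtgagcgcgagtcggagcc
Isl1, chr13:116309690-116309938, minus strand: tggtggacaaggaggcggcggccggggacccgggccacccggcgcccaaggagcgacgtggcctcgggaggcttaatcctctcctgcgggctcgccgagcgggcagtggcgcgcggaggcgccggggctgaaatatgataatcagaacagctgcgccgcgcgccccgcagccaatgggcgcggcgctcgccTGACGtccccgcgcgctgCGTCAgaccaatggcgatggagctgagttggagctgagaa
Sfxn1, chr13:54071595-54071844, plus strand: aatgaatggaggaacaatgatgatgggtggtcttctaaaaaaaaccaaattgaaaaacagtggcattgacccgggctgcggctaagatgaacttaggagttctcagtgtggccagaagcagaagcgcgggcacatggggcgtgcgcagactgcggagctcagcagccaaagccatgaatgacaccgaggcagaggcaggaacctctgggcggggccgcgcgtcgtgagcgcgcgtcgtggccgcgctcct
The half-site occurred 2 times in the Tac1 window, of which 1 lies in the printed stretch, and 2 times in the Isl1 window. It occurred 0 times in the windows of Drd1, Chrm4 and Sfxn1. Of 32851 RefSeq windows of this length, 17.8% held the half-site and 1.55% the full palindrome TGACGTCA, which none of the members' windows held. These are matches of letters and not measured binding sites.

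Sense counts assigned to genes ran from 39923666 to 70575745 per library. All 9 markers of striatal projection neurons of both pathways were well expressed, with a summed level between 3162 and 7216 CPM (counts scaled to library size by the TMM method). All 8 markers of cortical excitatory neurons were also detected and none was at 0, and their summed level spanned 73.9 to 1535 CPM over the 24 libraries. It was 207 to 1535 CPM in Con females and 73.9 to 663 CPM in MSUS females. The mean log2 CPM of these cortical markers, called the cortical score below, exceeded 5 in 4 libraries, namely Con females 2 and 3, Con male 5 and MSUS male 6. The share of uniquely mapped read pairs assigned to no gene was 31.0 to 34.8% in Con females and 36.3 to 43.9% in MSUS females, ranges that did not overlap.

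Levels were compared between members per kilobase of merged exons, as mean ± SD over 24 libraries. Drd1 was the most abundant member at 73.3 ± 14.7 CPM per kilobase, followed by Tac1 at 42.0 ± 8.05 and Chrm4 at 34.4 ± 7.66. Sfxn1 followed at 5.61 ± 0.216, Isl1 at 4.36 ± 1.49 and Eya1 at 0.931 ± 0.179 CPM per kilobase. Drd1 was above Tac1 in 24 of 24 libraries, and the lowest Chrm4 value of 17.4 CPM per kilobase was above the highest Sfxn1 value of 6.11. Tac1 and Chrm4 were neighbours whose means differed by less than the SD of either, as were Sfxn1 and Isl1 against the SD of Isl1, although the upper gene was higher in 22 of 24 libraries in each pair.

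The members differed in how much they varied between libraries. Sfxn1 had a coefficient of variation of 3.86% over the 24 libraries, with all its values between 51.8 and 60.2 CPM. Isl1 had the widest spread, 34.2%, with its highest library 6.29-fold above its lowest. The other 4 lay between 19.2% (Tac1) and 22.3% (Chrm4). Con female 3 held the lowest value of Drd1 (127 CPM), Tac1 (80.6 CPM), Chrm4 (25.1 CPM) and Isl1 (3.92 CPM), and MSUS male 6 the next lowest of Drd1 (152 CPM), Tac1 (82.0 CPM), Chrm4 (27.4 CPM) and Isl1 (5.02 CPM). Eya1 stood the other way, with its highest value in MSUS male 6 (10.1 CPM).

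**Figure D1:**
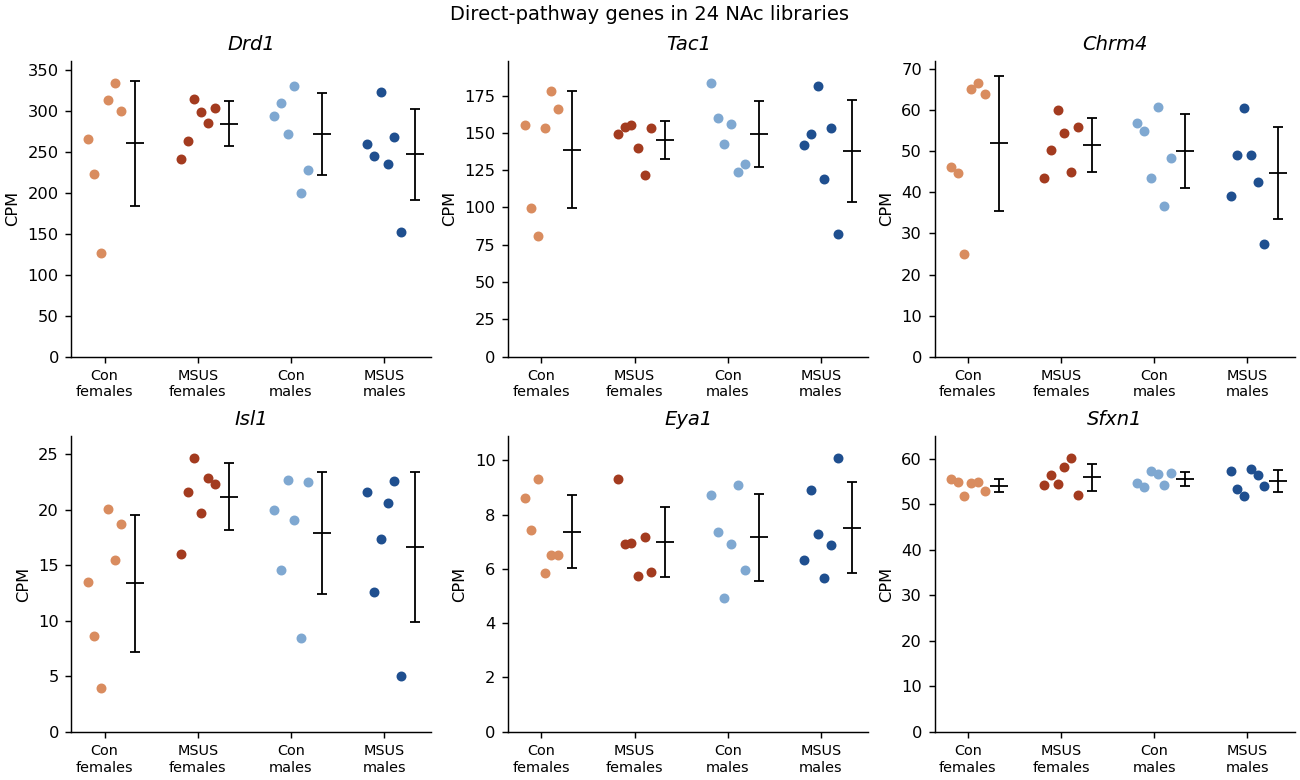
CPM (vertical axis, starting at 0) of each member in the 6 libraries of each group; points are libraries and bars are the mean ± SD of a group. The groups overlap in all 6 panels, Isl1 in Con females runs from 3.92 to 20.1 CPM, and Sfxn1 stays between 51.8 and 60.2 CPM in every library.

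The main question of the design was whether MSUS altered transcription in each sex. In females, 0 of the 6 members passed an adjusted p of 0.10 (edgeR quasi-likelihood test, Benjamini-Hochberg over 20571 genes), in a comparison where 25.1% of all genes tested did. At an unadjusted p under 0.05 the count was 0 of 6 with edgeR, where 32.7% of all genes reached it, and 1 of 6 (Isl1) with DESeq2, where 33.4% did. After adjustment DESeq2 also gave 0 of 6 members, and 28.1% of all genes. The ranges of Con and MSUS females overlapped for all 6 members, while they did not overlap for 7.22% of all genes. The median absolute log2 fold change was 0.072 for the members and 0.14 for all genes, and the median standard error (SE) was 0.18 for the members against 0.064 for genes with a mean above 100 counts. With the share of unassigned read pairs as a covariate, 0 of the 6 members and 0% of all genes passed with edgeR, and 5.71% of all genes had an unadjusted p under 0.05.

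Drd1 in Con females had a lowest value of 127, a median of 283 and a highest value of 334 CPM, and in MSUS females 242, 292 and 314 CPM. The Con females were thus the more scattered group and enclosed the MSUS females on both sides. The log2 fold change of MSUS over Con was 0.13 (SE 0.19, 95% confidence interval -0.28 to 0.54, adjusted p = 0.653 with edgeR). It was -0.0071 without Con female 3, and -0.083 without Con females 2 and 3, the females with a cortical score above 5. Con females 3 and 2 also had the lowest Drd1 of their group (127 and 223 CPM), so leaving them out lowers the difference by itself. Removal by that score was chosen after seeing the data. Chrm4 had a lowest value of 25.1, a median of 55.1 and a highest value of 66.6 CPM in Con females and 43.6, 52.4 and 60.1 CPM in MSUS females. Its log2 fold change was -0.0052 (SE 0.20, interval -0.45 to 0.44), so that a change of either direction up to about that size was not detectable. Neither receptor gene of the set passed without a covariate. Another fit, added after seeing the data, used the mean log2 CPM of the 9 striatal markers as a covariate. In it Drd1 was 0.081 higher in MSUS females (SE 0.034) and passed with an adjusted p of 0.0977 with edgeR. That fit called 32.6% of all genes. With the cortical score as a covariate, the log2 fold change of Drd1 was -0.15 (SE 0.19).

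Tac1, the substance P precursor, ran from 80.6 through a median of 154 to 178 CPM in Con females and from 122 through 151 to 155 CPM in MSUS females. The medians nearly coincided, and the log2 fold change was 0.073 (SE 0.17, interval -0.30 to 0.45). Leaving out Con female 3 gave -0.042. Leaving out Con female 2 as well gave -0.16 (SE 0.068, unadjusted p = 0.0383 with edgeR), which did not pass (adjusted p = 0.151). Con females 3 and 2 had the lowest Tac1 of their group (80.6 and 99.4 CPM), so leaving them out lowers the difference by itself.

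Isl1 gave the largest value of the 6. Con females had a lowest value of 3.92, a median of 14.5 and a highest value of 20.1 CPM, and MSUS females 15.97, 21.9 and 24.7 CPM. All 6 MSUS females were above the median of the Con females, and the lowest Con females were the libraries with the highest cortical scores of that group. The means were 13.4 ± 6.16 and 21.2 ± 3.02 CPM (SD, n = 6 each), and the log2 fold change of 0.67 (SE 0.31, interval -0.0073 to 1.35) did not pass (adjusted p = 0.156 with edgeR). With the share of unassigned read pairs as a covariate it was 0.59 (SE 0.65, adjusted p = 0.820 with edgeR). With the cortical score it was 0.25 (SE 0.29, adjusted p = 0.685), and without Con females 2 and 3 it was 0.33 (SE 0.14, adjusted p = 0.143). Con females 3 and 2 had the lowest Isl1 of their group (3.92 and 8.60 CPM), so leaving them out lowers the difference by itself. With the striatal markers as a covariate the log2 fold change of Isl1 was 0.64 (SE 0.12). It passed there with an adjusted p of 0.00521 with edgeR, in a fit that called 32.6% of all genes. Drd1 and Isl1 were the members that passed in that fit. Over all alternatives tried other than leaving out single libraries, the adjusted p of Isl1 ranged from 0.00521 to 0.917, and without each female library in turn from 0.104 to 0.265. The 4 cholinergic markers label the interneurons that also express Isl1. Their summed level was 19.1 to 66.0 CPM in Con females and 49.7 to 79.2 CPM in MSUS females. Their log2 fold changes ran from 0.20 to 0.79, with a median of 0.38. Of the 4, 0 passed, where 25.1% of all genes did. In bulk tissue, fewer cells of a type and less RNA per cell cannot be told apart.

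Eya1 lay between 5.87 and 9.33 CPM in Con females, with a median of 6.96, and between 5.75 and 9.33 CPM in MSUS females, with a median of 6.93. These ranges were nearly the same, and the log2 fold change was -0.071 (SE 0.14, interval -0.37 to 0.23). Sfxn1 lay between 51.9 and 55.5 CPM in Con females, with a median of 54.8, and between 52.1 and 60.2 CPM in MSUS females, with a median of 55.5. Its log2 fold change of 0.050 had an SE of 0.037 and an interval of -0.030 to 0.13, the narrowest of the set.

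**Figure D2:**
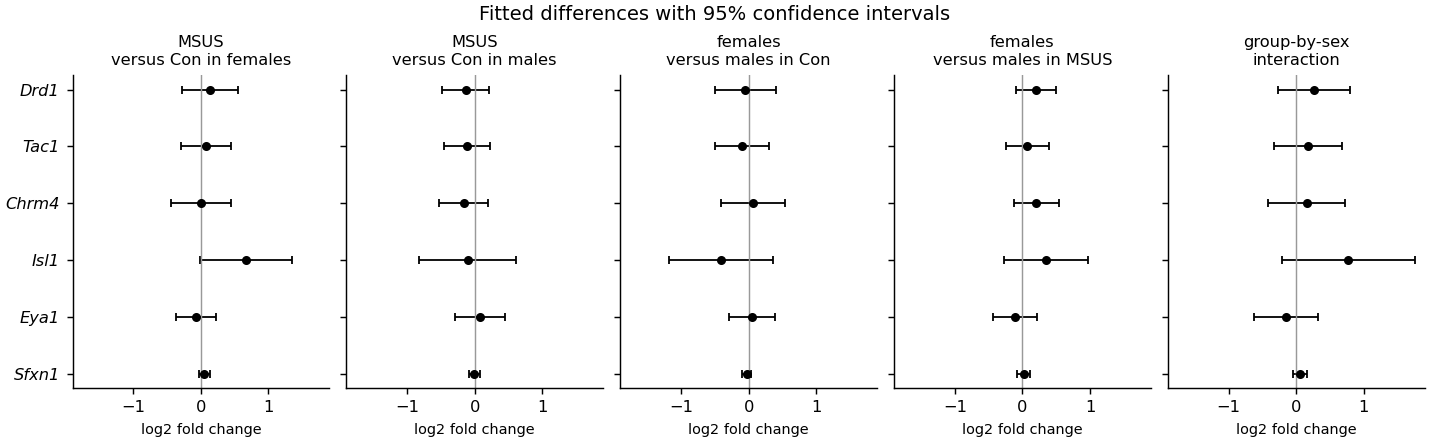
Log2 fold changes (horizontal axis) of the 6 members in the 4 pairwise comparisons and the group-by-sex interaction, with 95% confidence intervals from edgeR. Every interval includes 0, that of Isl1 in females starts at -0.0073, and those of Sfxn1 are the shortest.

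In males, 0 of the 6 members passed with edgeR or DESeq2 and 0 had an unadjusted p under 0.05 with either tool, where 0% of 20691 genes tested passed. That level of unadjusted p was reached by 0.923% of all genes with edgeR and by 0.715% with DESeq2. Drd1 ran from 199.7 through a median of 283 to 329.7 CPM in Con males and from 152 through 252 to 322 CPM in MSUS males. The lowest MSUS male was number 6, the library with the highest cortical score, and the log2 fold change of Drd1 was -0.13 (SE 0.16, interval -0.48 to 0.21) with it and -0.030 without it. Chrm4 ran from 36.6 through 51.6 to 60.7 CPM in Con males and from 27.4 through 45.7 to 60.6 CPM in MSUS males, a log2 fold change of -0.16 (SE 0.17). Tac1 ran from 124 through 149 to 183 CPM and from 82.0 through 146 to 181 CPM, a log2 fold change of -0.11 (SE 0.16). For both genes the groups overlapped over most of their range, and without MSUS male 6 the values were -0.059 and -0.00067. Isl1 ran from 8.47 through 19.5 to 22.7 CPM in Con males and from 5.02 through 18.98 to 22.5 CPM in MSUS males. Its log2 fold change was -0.11 (SE 0.33), and 0.082 without MSUS male 6. That library had the lowest Drd1, Chrm4, Tac1 and Isl1 of its group, so leaving it out raises the differences by itself. Con male 5, also with a cortical score above 5, had the lowest values of the Con males. Without Con male 5 and MSUS male 6 the log2 fold changes were -0.10 (Drd1), -0.13 (Chrm4), -0.048 (Tac1) and -0.063 (Isl1). Eya1 and Sfxn1 had log2 fold changes of 0.078 (SE 0.17) and -0.0077 (SE 0.038).

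Females and males were also compared within each rearing group. In Con animals 0 of 6 members passed, against 2.64% of 20641 genes, and in MSUS animals 0 of 6 passed, against 0.135% of 20714 genes. DESeq2 gave 0 of 6 in each of these comparisons, against 7.32% of all genes in Con and 0.806% in MSUS animals. At an unadjusted p under 0.05 the count was 0 of 6 with either tool, against 17.8% of all genes with edgeR and 17.6% with DESeq2 in Con animals and 7.29% and 7.62% in MSUS animals. In Con animals the log2 fold change of females over males was -0.40 for Isl1 (SE 0.35) and between -0.092 and 0.064 for the other 5. In MSUS animals it was 0.35 for Isl1 (SE 0.29), 0.21 for Chrm4 (SE 0.15) and 0.20 for Drd1 (SE 0.13). Without MSUS male 6, a library with a cortical score above 5, these values were 0.17, 0.101 and 0.098. The values of the other members in MSUS animals were 0.074 for Tac1, 0.017 for Sfxn1 and -0.11 for Eya1.

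Whether the effect of MSUS differed between the sexes was tested with an interaction term over all 24 libraries. No member passed (0 of 6 with edgeR and 0 of 6 with DESeq2, 0 with an unadjusted p under 0.05 by either), where 0% of 21500 genes passed with edgeR and 2.17% passed with DESeq2. The shares of all genes with an unadjusted p under 0.05 were 18.7% with edgeR and 19.4% with DESeq2. The interaction of Isl1 was 0.77 on the log2 scale (SE 0.47, interval -0.21 to 1.75). It was 0.070 with the share of unassigned read pairs as a covariate, 0.088 with the splice events per uniquely mapped read pair (the spliced share) and 0.20 with the cortical score. Those of Drd1, Tac1 and Chrm4 were 0.26 (SE 0.26), 0.18 (SE 0.24) and 0.15 (SE 0.27). That of Drd1 was 0.021, 0.028 and 0.014 with the same covariates. The unassigned share did not overlap between Con and MSUS females, so in females its effect and that of MSUS can hardly be told apart. In the comparison of MSUS with Con females, that covariate raised the SE from 0.31 to 0.65 for Isl1 and from 0.19 to 0.40 for Drd1. Without each library in turn, Drd1 ranged from 0.13 to 0.35, Tac1 from 0.067 to 0.27 and Chrm4 from 0.017 to 0.26. Eya1 and Sfxn1 gave -0.15 (SE 0.23) and 0.053 (SE 0.051).

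The balance of the pathways within a library was described by the ratio of Drd1 to Drd2, the D2 receptor gene, and of Tac1 to Penk, the enkephalin precursor. The log2 ratio of Drd1 over Drd2 ran from 0.51 through a median of 0.90 to 0.97 in Con females and from 0.84 through 1.02 to 1.101 in MSUS females. The lowest Con female was number 2, away from the other 5, which lay within the range of the MSUS females. The difference of 0.14 did not pass (two-sided exact permutation test over 924 splits, p = 0.0801, 0.320 adjusted over 4 tests), and it rested in part on single libraries. Without Con female 2 it was 0.073 (exact permutation p = 0.158, unadjusted), and without MSUS female 4 it was 0.17 (exact permutation p = 0.0152, unadjusted). In males the ratio ran from 0.88 through 0.95 to 1.12 in Con and from 0.83 through 0.94 to 1.11 in MSUS animals, a difference of -0.0064 (exact permutation p = 0.909).

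The log2 ratio of Tac1 over Penk was more variable between animals than that of the receptors. It ran from -2.86 through -2.61 to -1.97 in Con females and from -3.02 through -2.71 to -2.12 in MSUS females. The groups covered nearly the same range, and the difference was -0.097 (exact permutation p = 0.621, adjusted p = 0.909) and 0.014 without Con female 3. In Con males it ran from -2.74 through -2.55 to -2.08, and in MSUS males from -2.84 through -2.44 to -2.33, a difference of -0.044 (exact permutation p = 0.727, adjusted p = 0.909). The smallest p that the 924 splits allow is 0.00216. Penk itself was 829 ± 292 CPM in Con females and 908 ± 165 CPM in MSUS females (SD, n = 6 each).

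**Figure D3:**
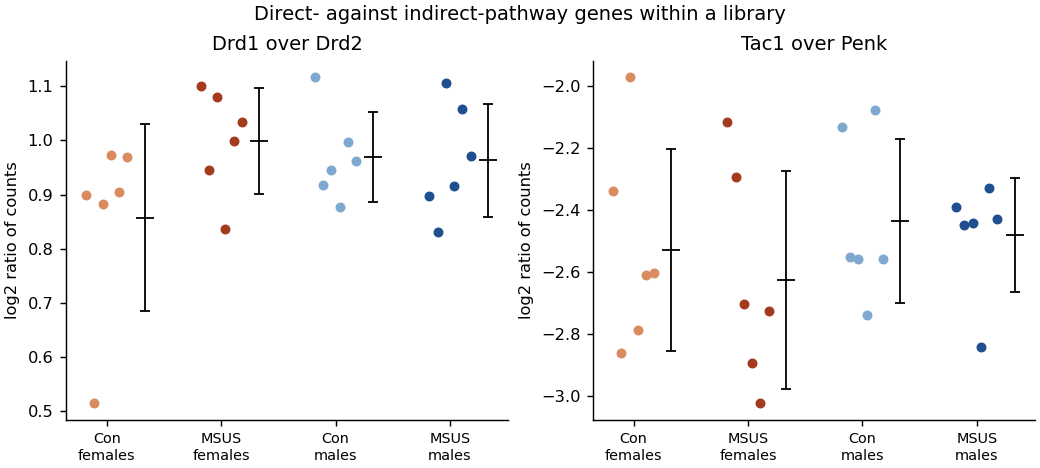
Log2 ratio of the counts (vertical axis, not starting at 0) of Drd1 over Drd2 and of Tac1 over Penk in each library; points are libraries and bars are the mean ± SD of a group. Con female 2 has the lowest Drd1 over Drd2 ratio at 0.51, and the groups overlap in both panels.

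Across libraries the members did not vary as a single set. Correlations were taken over 24 libraries on log2 CPM after subtracting the mean of each group, and they are given as descriptions since the libraries share their tissue dissection and scaling. Drd1, Chrm4 and Tac1 varied together from library to library, and Isl1 did so less closely. Drd1 had a Pearson r of 0.93 with Chrm4 (Spearman rho 0.84), 0.89 with Tac1 (rho 0.84) and 0.84 with Isl1 (rho 0.60). Without the 2 libraries farthest from the median of Drd1 these were 0.84, 0.77 and 0.62. Eya1 ran against Drd1 with an r of -0.52 (rho -0.39, and -0.32 without those 2 libraries). Sfxn1 had an r of 0.13 with its neighbour Drd1 (rho -0.062, and -0.13 without those 2 libraries). Isl1 had an r of 0.79 with Chrm4 (rho 0.53) and 0.76 with Tac1 (rho 0.55). When the group means were not subtracted, its r was 0.82 with Drd1, 0.74 with Tac1 and 0.72 with Chrm4. The rho of Isl1 was then 0.36, 0.13 and 0.20.

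Genes of the indirect pathway varied in the same way as Drd1. Drd1 had an r of 0.94 with Drd2, 0.96 with Penk and 0.97 with Adora2a, the adenosine receptor gene of indirect-pathway neurons. Its median r was 0.95 over the 5 indirect-pathway genes measured, 0.92 over 7 other genes enriched in direct-pathway neurons and 0.96 over 9 markers of both pathways. After the trend on the mean log2 CPM of those 9 markers was removed, the r of Drd1 was 0.31 with Tac1, 0.44 with Chrm4 and 0.49 with Isl1. In the same residuals its median r was 0.53 over the other direct-pathway genes and -0.082 over the indirect-pathway genes. For Tac1 these medians were 0.43 and -0.38, and for Chrm4 0.48 and -0.086. Over the 4 cholinergic markers the residual medians were 0.50 for Drd1, 0.53 for Chrm4 and -0.047 for Tac1. The residual values of single genes were widely spread. For Drd1 they ran from 0.066 to 0.66 (direct) and -0.36 to 0.55 (indirect), and for Tac1 from -0.59 to 0.83 and -0.80 to -0.25. Before the trend was removed, Drd1 had an r of 0.99 with the mean of the 9 markers.

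**Figure D4:**
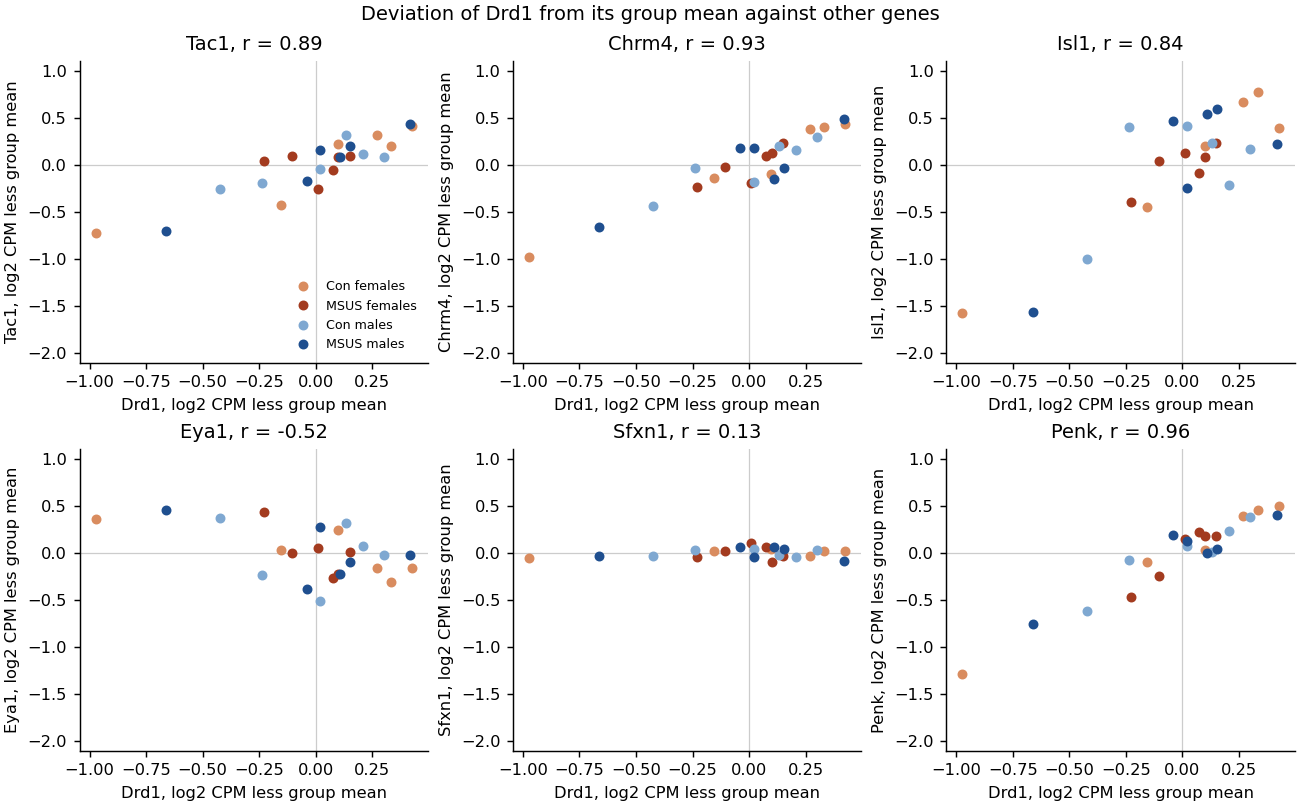
Deviation of each library from its group mean in log2 CPM for Drd1 (horizontal axis) and for Tac1, Chrm4, Isl1, Eya1, Sfxn1 and the indirect-pathway gene Penk (vertical axes, all to the same scale); points are 24 libraries coloured by group. Tac1, Chrm4, Isl1 and Penk are low where Drd1 is low, Eya1 runs the other way with an r of -0.52, and Sfxn1 is flat.

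Markers of other cell types were compared with the members in the same way. Isl1 had an r of 0.95 with Slc5a7, the choline transporter, 0.89 with Chat, which makes acetylcholine, and 0.88 with Lhx8, a LIM-homeodomain factor of cholinergic neurons. Over the 4 cholinergic markers the median r was 0.89 for Isl1, 0.82 for Chrm4, 0.78 for Drd1 and 0.63 for Tac1, and it was 0.80 for Isl1 after the trend on the striatal markers was removed. Isl1 was about as close to the 7 other genes enriched in direct-pathway neurons, with r from 0.75 to 0.90 and a median of 0.85, which was 0.50 after that trend was removed. Eya1 had an r of 0.82 with Tbr1, a cortical transcription factor, and a median r of 0.75 over the 8 cortical markers, where Drd1 had -0.50 and Isl1 -0.70. Its r with the cortical score was 0.78 (rho 0.74), and 0.71 without the 2 libraries farthest from the median of that score. For Sfxn1 the r with the cortical score was -0.57 (rho -0.56). The 4 libraries with the lowest Drd1 were the 4 with a cortical score above 5. The next lowest, Con male 6 (227 CPM) and MSUS male 4 (235 CPM), had low cortical scores of 1.71 and 1.46. The r of Drd1 with the cortical score was -0.53 (rho -0.44). The r between Drd1 and the share of unassigned read pairs was 0.27.

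**Figure D5:**
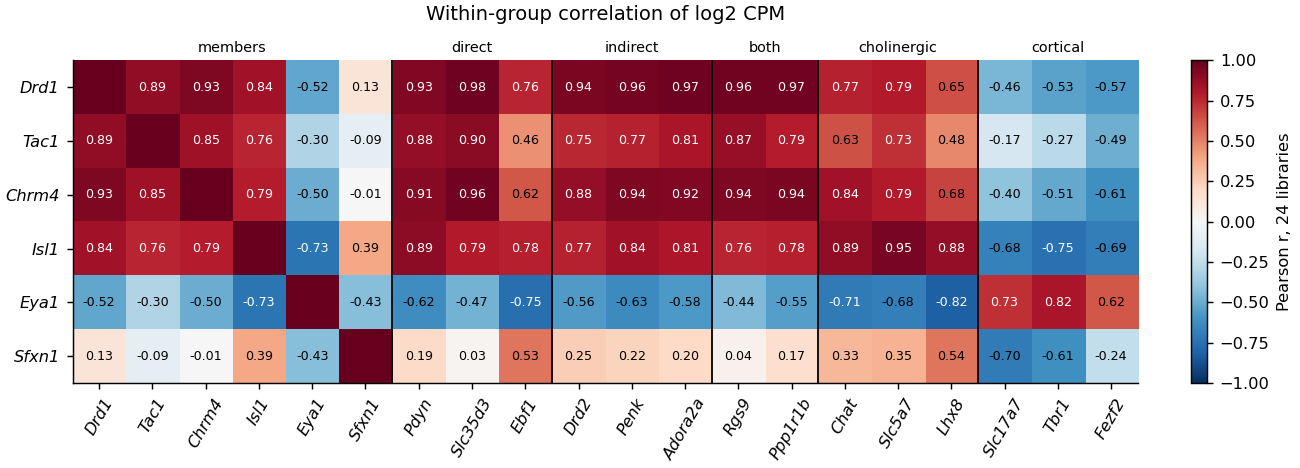
Pearson r of within-group deviations in log2 CPM over 24 libraries between the 6 members (rows) and the members, other direct-pathway, indirect-pathway, shared, cholinergic and cortical genes (columns). Drd1, Tac1, Chrm4 and Isl1 are positive with every direct, indirect, shared and cholinergic column, and Eya1 is negative with those and positive with Slc17a7, Tbr1 and Fezf2.

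The genes with the most similar pattern were ranked among 14308 genes with a mean of at least 100 counts, by Pearson r over the same 24 deviations. The first 3 for Drd1 included Pde7b (0.99) and Cacna2d3 (0.98). The first 3 for Tac1 included Clip4 (0.97) and Tshz1 (0.96), of which Tshz1 was on the list of genes enriched in direct-pathway neurons. For Chrm4 they were Tln2 (0.97), Rgs8 (0.97) and Zswim5 (0.96), and for Isl1 the developmental factor Sox1 (0.98), Rbms3 (0.97) and Six3os1 (0.97). For Eya1 they were Clic5 (0.93), Chrna7 (0.91) and Pclo (0.90). The values for Sfxn1 were lower, with 0.79 for Prlr, 0.78 for Dbi and 0.78 for Zim1.

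Of the genes that carry the D1 receptor signal, 2 of 13 passed in females, where 25.1% of all genes passed, and both fell in MSUS animals. Prkaca, a catalytic subunit of protein kinase A, was 175 ± 6.65 CPM in Con and 158 ± 5.93 CPM in MSUS females, a log2 fold change of -0.15 (SE 0.036, adjusted p = 0.0189 with edgeR), with ranges that did not overlap. Ppp1ca, a catalytic subunit of protein phosphatase 1, was 202 ± 16.7 and 175 ± 7.26 CPM, a log2 fold change of -0.20 (SE 0.052, adjusted p = 0.0222 with edgeR), and all 6 MSUS females were below the Con median. The other 11 did not pass, among them Creb1 at 0.10 (SE 0.057) and Prkar2b at 0.19 (SE 0.12). The 13 genes had a median log2 fold change of 0.047, where all genes had -0.0027. With the share of unassigned read pairs as a covariate, 0% of all genes passed in females with edgeR, so neither Prkaca nor Ppp1ca did.

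Of the 7 other genes enriched in direct-pathway neurons, 0 passed in females, with log2 fold changes between -0.11 and 0.37 and a median of 0.12. The smallest p-values in this list belonged to the transcription factor Ebf1 (0.23, SE 0.15), the D3 receptor gene Drd3 (0.37, SE 0.26), Zfp521 (0.12, SE 0.13) and Pdyn, the dynorphin precursor (0.20, SE 0.27). Of the 5 indirect-pathway genes 0 passed, with values between -0.060 (Sp9) and 0.14 (Penk). The direct and indirect lists thus each gave no call in a comparison where 25.1% of all genes were called.

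Relatives and partners of the members gave 5 calls among 17 genes tested of 19 listed in females, where 25.1% of all genes passed. Sfxn4, a relative of Sfxn1, rose by 0.24 (SE 0.064, adjusted p = 0.0284 with edgeR), Eya2, a relative of Eya1, by 0.38 (SE 0.11, adjusted p = 0.0421) and Chrm5, the M5 muscarinic receptor gene, by 0.84 (SE 0.29, adjusted p = 0.0703). Each was above the Con median in 5 of 6 MSUS females. Eya2 and Chrm5 were low, at 2.07 ± 0.302 and 3.20 ± 1.28 CPM in MSUS females. Sfxn3 fell by 0.091 (SE 0.033, adjusted p = 0.0765 with edgeR) and Chrm1, the M1 receptor gene, by 0.12 (adjusted p = 0.0809). None of these 5 genes passed with the share of unassigned read pairs as a covariate, where 0% of all genes did. In males 0 of these 17, 0 of the 13 signalling genes, 0 of the 7 direct-pathway and 0 of the 5 indirect-pathway genes passed. There, 0% of all 20691 genes tested passed with edgeR.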

How the data were processed

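Total RNA from the bilateral NAc of 24 mice was depleted of ribosomal RNA and sequenced. Per the labels and the study's methods, reads were aligned by the authors to mm10 with STAR (2.6.1b in the submitters' processing notes), using GENCODE M15. The deposited values are raw counts per gene, with and without regard to strand, and those of the reverse strand were used here. Counts were tested with edgeR 4.0.16 (filterByExpr with a minimum count of 10, TMM, robust quasi-likelihood F test, Benjamini-Hochberg over all genes, threshold 0.10 as in the study). It was tested on simulated counts with the same spread between libraries for every gene. That test does not tell how well changes in widely scattered members are detected. DESeq2 1.42.0 and other alternatives appear in the closing section. Exon lengths and positions came from GENCODE M21, and promoters from RefSeq. Ratios used counts plus 0.5 and exact permutation tests. Of each list, up to 4 genes with the smallest p in females were named, and per member the 3 most similar genes, of which 2 are not reported here; Chrm1, Slc5a7, Chat, Lhx8 and Tbr1 were named after their values were seen. The members and lists were chosen with earlier results of these data known. Each library is a separate animal per the labels. The indirect-pathway gene Gpr52 was not analysed here. Spliced shares used in an alternative came from the study's library table. Differences between low values are limited by depth: the lowest member counts were 203 (Eya1) and 207 (Isl1).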

Additional observations from a re-analysis of the deposited data

Results flagged for a closer look

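A library stood apart from the other 5 of its group in 2 of 32 group-wise checks of the members' CPM and of the ratios, where chance gives about 1.6. The log2 ratio of Drd1 over Drd2 was 0.51 in Con female 2, with the other Con females between 0.88 and 0.97, and the gap to the nearest of them was 0.80 of the range of the group. That library had a cortical score of 5.49 and a Drd1 level of 223 CPM. The log2 ratio of Tac1 over Penk was -2.84 in MSUS male 4, with the other MSUS males between -2.45 and -2.33, and the gap was 0.77 of the range. The cortical score of that library was 1.46.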

How the results depend on the processing

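The count of members past the threshold was 0 of 6 in each of the 5 comparisons, and it stayed at 0 under DESeq2 size factors, DESeq2, both other count filters, unstranded counts, the sets of library numbers, an adjusted p under 0.05, all 24 libraries together (not for the interaction), the unassigned share, the spliced share, the cortical score, the removal of libraries with a cortical score above 5, and without each library in turn (0 to 0). The exception was MSUS against Con in females with the striatal score as a covariate, where it was 2 (Isl1 and Drd1). That fit called 32.6% of all genes. With edgeR, 0% of all genes passed in males and for the interaction without covariates, and in females with the unassigned share. A count of 0 in those fits is therefore not particular to the members. Removing libraries by score and the striatal score were chosen after seeing the data. The labels number animals alike in each group, but same-numbered animals did not deviate together in all pairs (r from -0.24 to 0.25 in females and -0.37 to 0.26 in males, and 2 of 6 numbers in females and 0 of 6 in males correlated best with their own), so the numbers were not taken as pairs; with the replicate block 0 of 6 members passed in each comparison, and the sign-flip p of the ratio of Drd1 over Drd2 in females was 0.125 (exact).

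The sign of small differences depended on the setting, and the cause was not tested. Of the values of single members under the alternatives, 744 kept their direction and side of the threshold, 2 newly passed and 70 changed sign, of which 0 passed. In females, Chrm4 was 0.0019 with at least 10 counts in every library, 0.046 with the replicate block, 0.0030 with the sets of library numbers and 0.032 with the spliced share, where Tac1 was -0.064. With the cortical score, Drd1 was -0.15, Tac1 -0.043 and Eya1 0.17, and without libraries with a score above 5 they were -0.083, -0.16 and 0.037. In males, the striatal score gave 0.00048 for Drd1 and 0.017 for Isl1. For females against males in Con, the unassigned share gave 0.086 (Drd1), 0.18 (Isl1) and -0.14 (Eya1), the spliced share 0.12 (Drd1), 0.12 (Tac1), 0.30 (Isl1) and -0.10 (Eya1), the cortical score 0.076 (Drd1) and -0.13 (Eya1), and removal of the high-score libraries 0.077 (Drd1) and 0.074 (Tac1). For females against males in MSUS, Tac1 was -0.029 with the unassigned share, -0.028 with the spliced share, -0.059 with the striatal score and -0.035 without the high-score libraries, Eya1 was 0.087 with the cortical and 0.0052 with the striatal score, and Sfxn1 was -0.015 with the cortical score. The interaction with the unassigned share was -0.092 (Tac1) and 0.079 (Eya1), with the spliced share -0.11 (Tac1) and 0.039 (Eya1), with the cortical score -0.095 (Chrm4) and 0.23 (Eya1), with the striatal score -0.027 (Chrm4), and without the high-score libraries -0.12 (Tac1) and -0.095 (Chrm4).

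Without each library in turn, the female differences ranged from -0.0071 to 0.21 (Drd1), -0.042 to 0.15 (Tac1), -0.15 to 0.074 (Chrm4) and -0.17 to 0.0099 (Eya1), and the male ones from -0.25 to 0.082 (Isl1), -0.030 to 0.16 (Eya1) and -0.021 to 0.011 (Sfxn1). Between the sexes they ranged in Con from -0.14 to 0.073 (Drd1), -0.18 to 0.0046 (Tac1), -0.032 to 0.19 (Chrm4) and -0.051 to 0.11 (Eya1), and in MSUS from -0.035 to 0.17 (Tac1) and -0.0026 to 0.038 (Sfxn1). The interaction ranged from 0.59 to 0.92 (Isl1), -0.25 to -0.043 (Eya1) and 0.032 to 0.076 (Sfxn1). The ratio of Drd1 over Drd2 ranged from 0.073 (without Con female 2) to 0.17 (without MSUS female 4, past 0.05) in females and from -0.035 to 0.023 in males, and that of Tac1 over Penk from -0.20 to 0.014 and from -0.10 to 0.028. After the trend on the striatal score, the r of Drd1 was 0.31 with Tac1, 0.44 with Chrm4, 0.49 with Isl1 and -0.26 with Eya1, and after that on the cortical score -0.21 with Eya1 and -0.25 with Sfxn1. The levels per kilobase moved by less than 1 SD under either alternative.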
